A study of Caenorhabditis elegans with 2 samples.

Results

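The regions described here are 670 places in the Caenorhabditis elegans genome, each beside coding promoters that point one way only, where the tagged protein T23F11.4 gave a strong chromatin immunoprecipitation signal. They were chosen from the 29999 regions on the 6 nuclear chromosomes in the list that the authors called on both replicates pooled. A region was selected when its pooled signal value was at least 80, when its summit lay within 1000 bp of starts of protein-coding transcripts that were all on 1 strand, and when no tRNA, snoRNA, snRNA, rRNA, miRNA or ncRNA gene lay within 500 bp of the summit. The signal value is the authors' own measure of enrichment per region, and since it chose the members it is given below as a description only. The 670 members were 29.6% of the 2263 nuclear regions with a signal of at least 80, which are called strong here. The pooled list includes background as well as peaks. Most members were outside the authors' optimal set, which is described below. Of the other strong regions, 1087 had no coding start within 1000 bp, 217 had coding starts on both strands, and 289 had starts on 1 strand but lay near an RNA gene.

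The experiment was transcription factor chromatin immunoprecipitation and sequencing of whole late embryos, aged 4 hours per the labels, of mixed sex and collected by egg bleaching. Both samples came from strain OP709, an unc-119(tm4063) strain with the integrated transgene wgIs709, which holds T23F11.4::TY1::EGFP::3xFLAG beside a rescuing unc-119(+). The bound protein was thus a tagged transgene product, beside whatever untagged protein they make. The 2 samples formed 1 group, labelled as biological replicates 1 and 2, and an antibody against GFP was used on chromatin sheared by sonication. A control experiment named in the labels was not analysed here, no untagged strain was compared, and signal from whole embryos is a sum over all their cells.

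Most C. elegans genes are transcribed from promoters whose coding transcript runs in one direction, while other neighbouring genes lie head to head and share a promoter region between diverging starts. Many C. elegans transcripts are trimmed and joined to a spliced leader, so an annotated start can mark the processed end rather than the place where RNA polymerase began. Promoters of broadly used genes in this species are often rich in G and C beside AT-rich flanks, and polypyrimidine and GA-rich tracts are common in them.

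The sequences at the strongest members show what kind of DNA lay under the summits. Those printed reach 50 bp either side of the summit of the 10 members with the highest signal on chromosomes II to V and X, read 5′ to 3′ along the strand of the nearest coding gene, from the RefSeq WBcel235 assembly, which is the ce11 build of the regions. Capitals mark the word AGAGAG, the overlapping word GAGAGA and the word GACGCA on either strand. All are 6-base words (6-mers) that were more frequent at member summits than in nearby flanks.
K12H4.5 (chrIII:8043908-8044008, plus strand): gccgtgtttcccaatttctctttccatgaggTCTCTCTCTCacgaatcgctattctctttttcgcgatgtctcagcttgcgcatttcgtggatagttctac
rpl-3 (chrIII:3867527-3867627, plus strand): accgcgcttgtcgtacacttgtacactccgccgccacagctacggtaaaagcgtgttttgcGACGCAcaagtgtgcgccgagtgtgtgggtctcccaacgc
M01F1.9 (chrIII:3499973-3500073, minus strand): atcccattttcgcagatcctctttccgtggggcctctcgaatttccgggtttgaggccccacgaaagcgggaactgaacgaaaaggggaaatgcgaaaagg
Y39E4B.6 (chrIII:13070672-13070772, plus strand): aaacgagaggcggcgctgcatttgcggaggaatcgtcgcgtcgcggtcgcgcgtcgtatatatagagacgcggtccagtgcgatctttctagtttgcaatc
tos-1 (chrV:9344244-9344344, minus strand): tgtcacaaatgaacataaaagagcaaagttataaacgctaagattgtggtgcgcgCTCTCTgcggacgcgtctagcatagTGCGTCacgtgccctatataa
mdt-26 (chrII:5661834-5661934, plus strand): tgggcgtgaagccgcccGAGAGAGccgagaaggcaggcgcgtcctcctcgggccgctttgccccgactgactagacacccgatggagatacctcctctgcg
hsp-3 (chrX:6092110-6092210, minus strand): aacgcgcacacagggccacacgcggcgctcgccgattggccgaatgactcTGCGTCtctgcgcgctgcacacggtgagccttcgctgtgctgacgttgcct
ntl-2 (chrII:4376851-4376951, minus strand): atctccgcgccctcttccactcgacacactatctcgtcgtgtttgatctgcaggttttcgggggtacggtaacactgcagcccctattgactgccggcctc
cdc-48.1 (chrII:10563533-10563633, minus strand): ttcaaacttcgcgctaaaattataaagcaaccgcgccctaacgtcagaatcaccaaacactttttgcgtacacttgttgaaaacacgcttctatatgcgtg
mdl-1 (chrX:6742031-6742131, plus strand): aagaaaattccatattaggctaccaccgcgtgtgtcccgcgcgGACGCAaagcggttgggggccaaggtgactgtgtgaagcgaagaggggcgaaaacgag
A G- and C-rich core was visible in most of these windows, 6 of the 10 held at least 1 capitalised word, and the windows at M01F1.9, Y39E4B.6, ntl-2 and cdc-48.1 held none.

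The next 6 windows are those with the highest signal, beyond the first 10 and on the same chromosomes, that hold GAGAGA, the word found in the most member windows among those more frequent at summits. They are shown because GA repeats set members apart from weaker regions most clearly among the motifs compared below.
unc-115 (chrX:10146688-10146788, plus strand): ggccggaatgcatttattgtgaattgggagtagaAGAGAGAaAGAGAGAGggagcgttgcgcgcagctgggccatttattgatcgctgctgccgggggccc
Y43F8B.2 (chrV:19522692-19522792, minus strand): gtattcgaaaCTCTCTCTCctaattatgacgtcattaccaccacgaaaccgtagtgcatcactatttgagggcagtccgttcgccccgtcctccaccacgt
lin-66 (chrIV:13887544-13887644, plus strand): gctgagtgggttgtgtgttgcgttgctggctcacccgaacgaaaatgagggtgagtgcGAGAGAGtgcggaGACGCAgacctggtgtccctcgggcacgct
daf-19 (chrII:10169583-10169683, minus strand): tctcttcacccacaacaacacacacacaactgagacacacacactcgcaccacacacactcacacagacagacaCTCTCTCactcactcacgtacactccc
mvk-1 (chrIII:6133583-6133683, minus strand): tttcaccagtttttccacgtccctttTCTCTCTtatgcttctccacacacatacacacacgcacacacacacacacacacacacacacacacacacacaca
fust-1 (chrII:7152105-7152205, plus strand): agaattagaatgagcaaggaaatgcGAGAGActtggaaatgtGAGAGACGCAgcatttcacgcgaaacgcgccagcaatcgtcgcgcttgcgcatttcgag
The capitals lay at different distances from the summit and on both strands of the gene, and the windows at lin-66 and fust-1 held GACGCA as well.

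The signal of the members ran from 80.01 to 712.7, with quartiles of 84.04, 91.48 and 110.9, so that the upper tail was long. The largest value, 712.7, belonged to K12H4.5, which encodes an uncharacterised protein, with 249.2 in the replicate 1 list and 456.9 in the replicate 2 list, at an intergenic summit 529 bp upstream of the start. The next, 526.6, lay 277 bp upstream of rpl-3, a large-subunit ribosomal protein gene, with 199.7 in replicate 1 and 321.5 in replicate 2. These 2 regions stood above all other members in the pooled list, where the next value was 333.5.

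The members that followed lay beside genes of varied function. The regions at M01F1.9, annotated as an arrestin-domain protein gene, and at Y39E4B.6, annotated as Smad nuclear-interacting protein 1, had signals of 333.5 (125.0 and 202.5 in replicates 1 and 2) and 323.4 (101.9 and 224.6). The region at tos-1, a target of splicing, had 309.8 (99.91 and 203.6), and the region at hsp-3, an Hsp70 chaperone of the endoplasmic reticulum, had 270.3 (70.17 and 194.5). The summits of tos-1, hsp-3 and Y39E4B.6 lay 91, 36 and 34 bp upstream of the annotated start, whereas that of M01F1.9 lay 966 bp upstream, in an intron of another transcript.

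The region at mdt-26, which encodes a subunit of Mediator, the bridge between transcription factors and RNA polymerase II, had 271.1 (101.7 and 178.3). Its summit lay 703 bp downstream of the start, in an intron. The region at ntl-2, a subunit of the CCR4-NOT mRNA deadenylase complex, had 261.9 (111.0 and 159.7). In contrast to mdt-26, its summit was intergenic and lay 436 bp upstream, and a second member at the same gene had 133.4 at 642 bp upstream.

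The region at cdc-48.1, the p97 ATPase that extracts proteins for degradation, had 261.7 (117.6 and 149.6). The region at mdl-1, a Mad-like basic helix-loop-helix factor, had 260.9 (74.27 and 199.1), and that at rpl-35, a ribosomal protein gene, had 244.3 (66.40 and 174.0). The order in replicate 1 differed from that in replicate 2: cdc-48.1 was well above mdl-1 in replicate 1 and below it in replicate 2. cdc-48.1 and mdl-1 also lay closest of these to a non-coding gene, 519 bp from a snoRNA gene and 627 bp from an ncRNA gene, just outside the distance that the selection allowed.

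The remaining strong members had signals from 202.1 to 239.8. They lay at ain-1, a GW182-family protein of microRNA silencing, K05C4.2, a jagunal homologue, rps-28, a small-subunit ribosomal protein gene, plrg-1, a pre-mRNA splicing factor, and ddp-1, which encodes the mitochondrial import chaperone Tim8. They also lay at unc-115, an actin-binding protein of axon guidance, cut-2, a cuticlin of the cuticle, C46F11.4, an RNA helicase gene, and spc-1, the spectrin alpha chain. Of the 20 strongest, 17 had the summit upstream of the start and 16 were intergenic, and mdt-26, K05C4.2 and cut-2, at 703, 291 and 745 bp, lay downstream.

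**Figure D1:**
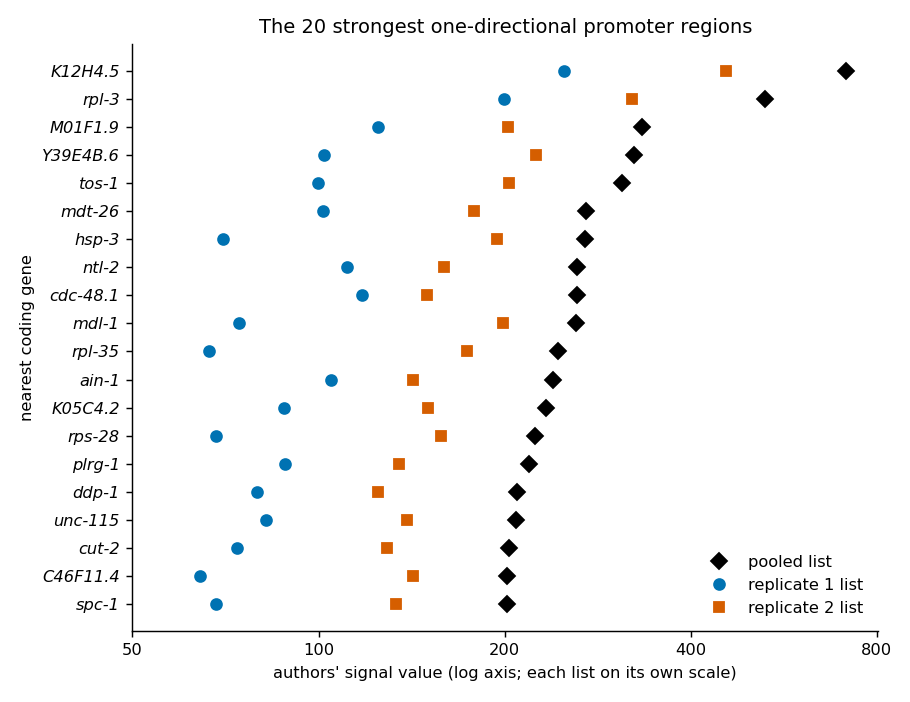
Signal value (log axis) of the 20 members of highest pooled signal, by nearest coding gene, in the pooled list and in the list of each replicate; no error bars, since each point is 1 value per list. Replicate 2 values lie above replicate 1 values at every gene shown, and K12H4.5 and rpl-3 stand apart in all 3 lists.

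Around the selection threshold the values formed a continuum. The members just inside were epg-7, an autophagy gene, at 80.01, rpl-13, a ribosomal protein gene, at 80.05, and D1005.6 at 80.06. The regions just outside were those of W02A2.5 at 79.99, T04D3.5 at 79.91 and W01H2.2 at 79.91. The 9915 weaker regions that met the rest of the rule, with a median signal of 45.95, serve below as the comparison, together with 167 regions of signal at least 80 at divergent coding promoters away from RNA genes.

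Nearly every member had a counterpart in both replicates, 661 in replicate 1 and 669 in replicate 2, by at least 1 bp of overlap. Counted as summits within 100 bp, the numbers were 589 (87.9%) and 633 (94.5%). The pooled list was made from these replicates, so this overlap does not stand apart from the selection. The replicate lists held 29994 and 25794 regions, background included. The same shares over all pooled regions are not given here, so these counts are no result about the members. Of all pooled nuclear regions, 9.46% overlapped one of the 2263 strongest regions of replicate 1 and 9.64% one of those of replicate 2. Among the members these numbers were 381 (56.9%) and 480 (71.6%). This contrast too follows from the selection on pooled signal and is no result about the members. In both replicates 255 members (38.1%) were among the strongest, 126 in replicate 1 only, 225 in replicate 2 only and 64 in neither.

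Signal values were higher in replicate 2, with a median of 60.8 against 36.5 in replicate 1, a median ratio of 1.72, and an SD of 0.51 for the log2 ratio across 660 members. The 2 lists as a whole differed likewise, with median signals of 33.8 and 20.5. Pearson's r of log2 signal across members was 0.476 and Spearman's rho 0.238, as a description of points that share libraries and a threshold. Among the members, rank in 1 replicate said little about rank in the other, apart from the strongest regions. A cut on the pooled signal of the same replicates narrows the range of values. The 2 coefficients therefore do not measure agreement over the whole lists. Where members overlapped the same replicate region they took the same value, which held for 38 members in each replicate. Read depth is not given in the lists, so no counting error could be set for a signal value.

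The authors' optimal set, which passed their reproducibility threshold, held 143 of the 670 members (21.3%). It held 635 of the 2263 nuclear regions with a signal of at least 80, and 2.12% of all pooled nuclear regions. The lowest signal in that set was 115.7, and most members fell outside it. The contrast with all pooled regions follows from the selection on signal and is no result about the members.

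The members lay beside 621 genes, counting the gene with the nearest start, which is 3.11% of the 19973 coding genes annotated. Of these genes 579 had 1 member, 36 had 2 and 6 had 3 or more. The gene lit-1, a Nemo-like kinase of Wnt signalling, had 4 members. The genes lin-66, unc-62, lin-42, zfp-1 and egl-30 had 3 each, and 19 pairs of members overlapped one another, so members of 1 gene are not independent. At 631 members a single coding gene had a start within 1000 bp, at 36 there were 2 genes and at 3 there were 3.

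The label of one-directional promoters was set beside annotation outside the rule, either other gene types or the rule's own types at greater distances. An opposite-strand start of another gene type lay within 1000 bp of 22 members. Among them were 11 with a piRNA gene, 7 with a pseudogene, 2 with a lincRNA and 2 with an antisense RNA. A gene of the RNA types in the rule lay within 1000 bp of 32 members, on either strand. The same counts at weaker and divergent regions are not given here. An opposite-strand coding start more than 1000 and at most 2000 bp away was found at 91 members (13.6%). Direction is that of annotated transcripts, since no measurement of transcription was used here.

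Member summits lay upstream of the start far more often than weaker summits did. Of the 670 members, 442 had the summit upstream of the nearest start (66.0%, Wilson 95% interval 62.3% to 69.5%), against 4402 of 9915 weaker regions (44.4%). The odds ratio was 2.43 and the adjusted p 1.59e-26 (two-sided Fisher's exact tests on 7 position measures, adjusted by Benjamini-Hochberg). Regions are not replicates of a condition, so p-values here describe these 2 replicates' lists and do not measure spread between further cultures. The median summit lay 154.5 bp upstream among members and 80 bp downstream among weaker regions. The 250 bp just upstream of the start held 28.5% of member summits and 16.2% of weaker ones. When position was measured from the most upstream start of the gene instead, the upstream share of members was 53.6% (adjusted p 6.85e-21, Fisher's exact test).

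**Figure D2:**
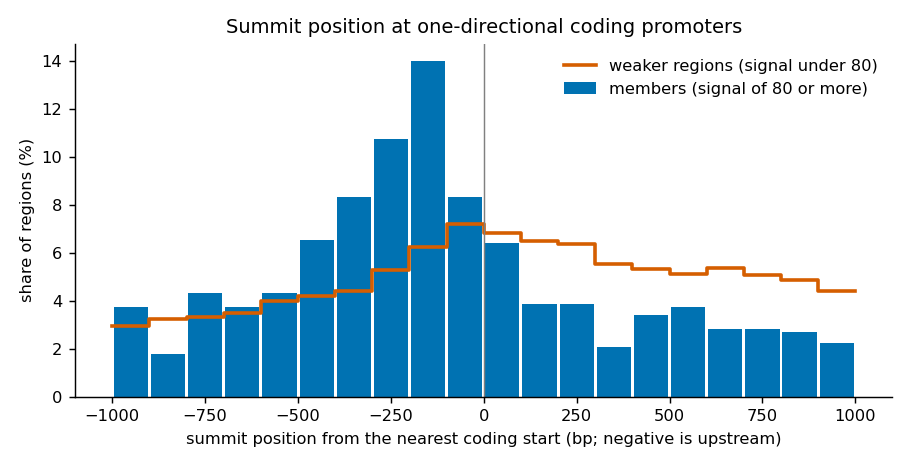
Share of summits (%) in 100 bp bins by position from the nearest coding start (bp, negative is upstream), for the 670 members (bars) and the 9915 weaker regions (line). Members are concentrated within 500 bp upstream, while weaker summits extend further into the gene.

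The upstream share differed between signal classes. Upstream summits made up 43.8% of the regions under 60 and 47.4% of those from 60 to 80. Among members the share was 59.2% (258 of 436) for signals from 80 to 100, 69.4% (75 of 108) from 100 to 120, 86.7% (91 of 105) from 120 to 200 and 85.7% (18 of 21) at 200 or above. The Wilson intervals of the 2 highest classes, 78.9% to 91.9% and 65.4% to 95.02%, overlapped, so those classes could not be ranked.

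**Figure D3:**
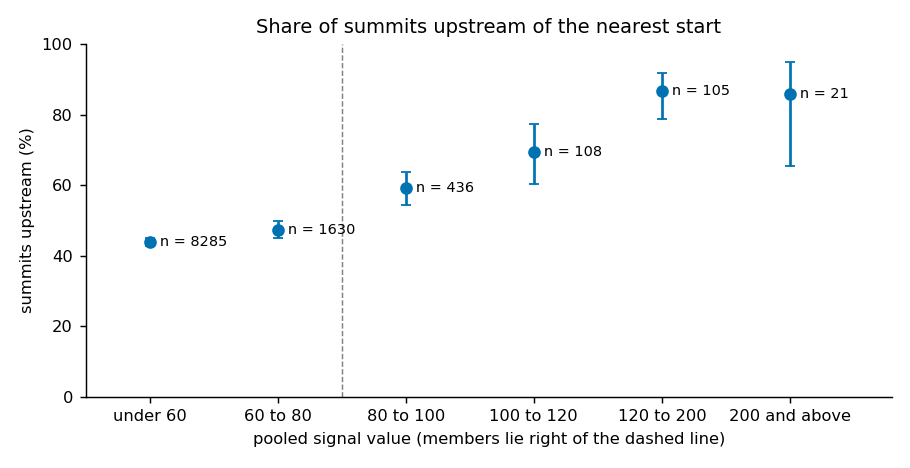
Share of summits upstream of the nearest coding start (%) in 6 classes of pooled signal, with Wilson 95% intervals over regions and the number of regions in each class. The share is 43.8% in the weakest class and above 85% in the 2 strongest.

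Upstream and downstream members also lay in different parts of the annotation. Of the 442 upstream members, 322 were intergenic (72.9%) and 84 were in introns. Of the 228 downstream members, 94 were in coding exons (41.2%), 89 in introns and 35 in 5' UTRs. Over all members 328 summits were intergenic (48.96%, against 27.3% of weaker regions) and 105 were in coding exons (15.7%, against 32.7%). The median signal was 95.5 upstream and 87.4 downstream. Region shape set the precision of these positions, since in 668 members the summit was the midpoint of an interval of the same fixed width.

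Members were also compared with weaker regions for distance to the start, chromosome and neighbours. Summits within 200 bp of a start were 220 of 670 (32.8%) against 26.9% (odds ratio 1.33, adjusted p 0.00124, Fisher's exact test), a call that was lost for starts within 500 bp (adjusted p 0.36) and at a signal of at least 120 (adjusted p 0.0635). The X chromosome held 131 members (19.6%) against 14.2% of weaker regions (odds ratio 1.47, adjusted p 0.000491). The X difference was not called in the strongest regions of replicate 1 alone (16.2%, adjusted p 0.125) nor for starts within 500 bp (16.4%, adjusted p 0.133), all by Fisher's exact test. An upstream neighbour more than 2000 bp away was found at 308 of 669 members (46.04%) against 39.1% (adjusted p 0.000608, Fisher's exact test), which was likewise lost in replicate 1 alone (43.5%, adjusted p 0.0735), for starts within 500 bp (38.8%, adjusted p 0.133) and at a signal of at least 120 (45.2%, adjusted p 0.169). The nearest upstream gene was on the same strand at 395 of 669 members (59.0%) and at 61.8% of weaker regions, which did not pass the test (adjusted p 0.151).

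Against divergent promoters the members lay further from a start and more often on X. Summits within 200 bp made up 32.8% of members and 62.3% of the 167 divergent regions (odds ratio 0.296). Among 1162 weaker divergent regions 598 lay within 200 bp (51.5%), against 26.9% of weaker one-directional regions, so the gap was seen at both strengths. A divergent region has starts on both strands within 1000 bp by definition, so its nearest start is the closest of more starts. The part that this definition has in the gap was not tested, so the gap is given as a description, without its p-value. X held 19.6% of members and 2.40% (4 of 167) of divergent regions (odds ratio 9.90, adjusted p 1.71e-09, Fisher's exact test). The odds ratio was 5.24 in the strongest regions of replicate 1 alone and 5.76 for starts within 500 bp, with the call kept in both. Among the weaker divergent regions 50 were on X (4.30%), so few divergent regions of either strength were on that chromosome.

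The DNA at member summits was rich in G and C. The median G+C content within 50 bp of the summit was 47.5%, against 40.6% at weaker summits and 47.5% at divergent summits. It was 35.6% in a flank of the same length centred 300 bp upstream of the summit, along the gene. For the 228 members with summits downstream of the start, this flank can lie within the gene. The mean over 51 bp windows was 35.6% at 500 bp before the summit, 48.0% at the summit and 37.4% at 500 bp beyond it. The profile was broader in members, with 42.8% at 100 bp before and 43.4% at 100 bp after the summit, where divergent regions had 35.99% and 35.87%. Among members the median at the summit was 45.5% for signals from 80 to 100 and 53.5% for those at 200 or above.

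**Figure D4:**
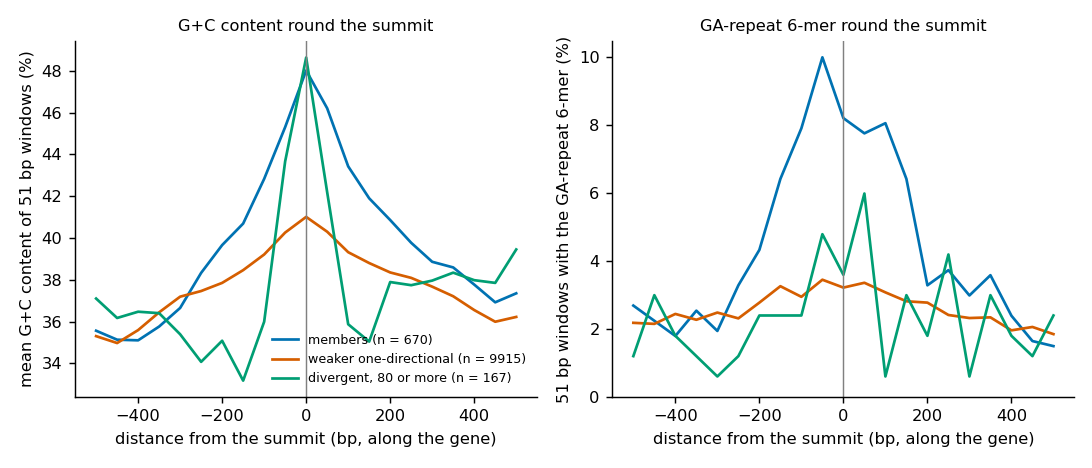
Mean G+C content (%) and share of 51 bp windows with the GA-repeat 6-mer (%) by distance from the summit (bp, along the gene), for members, weaker one-directional regions and divergent regions of signal at least 80. Members and divergent regions reach the same G+C content at the summit, over a wider stretch in members, and the GA repeat in members is at its highest, 10%, in the window 50 bp before the summit.

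Every 6-mer, counted with its reverse complement, was compared between the window of 50 bp either side of the summit and the flank of the same members (exact McNemar test, two-sided, Benjamini-Hochberg over all 6-mers). 6-mers more frequent at summits were 10.6% of those tested (221), and 8.94% (186) were less frequent. In the strongest regions of replicate 1 alone 135 were more frequent. All 6-mers called higher had at least 3 G or C letters, and all but 3 of those called lower had at most 2, beside the difference in G+C content given above. The part that base composition has in these calls was not tested. The 6 with the smallest p were made only of A and T and were all less frequent at summits. The first of them, AAAATT, was in 20.1% of summit windows and 40.7% of flanks (adjusted p 4.01e-14, exact McNemar test), and in 31.8% of weaker windows.

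AGAGAG and GACGCA were the 2 words higher at summits with the smallest p. AGAGAG was in 109 summit windows (16.3%) and 37 flanks (5.52%), with an adjusted p of 1.49e-08 in the exact McNemar test, and in 6.40% of weaker and 8.98% of divergent windows. In the strongest regions of replicate 1 alone it was in 10.5% of summit windows (adjusted p 0.000513, exact McNemar test). GACGCA was in 72 summit windows (10.7%) and 15 flanks (2.24%), with an adjusted p of 3.47e-08 in the same exact test, and in 3.58% of weaker and 13.8% of divergent windows. At least 1 of them was in 167 members (24.9%) and both were in 14, so 3 in every 4 members held neither word in this window. AGAGAG holds 3 G or C letters, and among the 640 6-mers with 3 such letters 35 were called higher at summits and 3 lower. Of those 35, 12 held AGAG or GAGA on either strand, as did 40 of the 640. These letters were picked after the 6-mers had been seen, and no test was made. Such words overlap, so the same windows can count for several of them.

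By signal class, as a description with no test of a difference between the words, GACGCA was in 7.80% of members with signals from 80 to 100, 8.33% from 100 to 120, 22.9% from 120 to 200 and 23.8% (5 of 21) at 200 or above, while AGAGAG was in 14.9%, 17.6%, 20% and 19.0%. The median signal was 103.7 with GACGCA and 90.5 without it, and 92.4 with AGAGAG and 91.0 without it. Members with either word mostly had upstream summits, 59 of 72 for GACGCA (81.9%) and 84 of 109 for AGAGAG (77.1%). The longer run AGACGCAGA was in 27 member windows (4.03%), 4 flanks, 0.958% of weaker windows and 2.99% of divergent windows, and was picked after the 6-mers had been seen.

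Because each member has a single coding direction, its window could be read along the gene. Of all pairs of a 6-mer and its reverse complement, 0.0992% (2 pairs) had a preferred orientation (exact McNemar test, Benjamini-Hochberg over all pairs). AGAAAA read along the gene alone was in 33 windows and its reverse TTTTCT alone in 93 (adjusted p 0.000171, exact McNemar test). For AAGAAA the counts were 28, and 70 for TTTCTT (adjusted p 0.0266, exact McNemar test). In both pairs the pyrimidine-rich strand thus ran along the gene more often than against it. Neither pair was called at a signal of at least 120 (adjusted p 1 for both) or in replicate 1 alone (adjusted p 0.12 and 0.961), and AAGAAA was also lost in replicate 2 alone (adjusted p 0.0772), all by the exact McNemar test. AGAGAG and GACGCA showed no call, with 43 and 29 members holding the word along the gene alone and 62 and 40 against it alone.

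Of 17 motifs compared in the 201 bp at the summit, on both strands, 2 were more frequent in members than in weaker regions (Fisher's exact test, Benjamini-Hochberg over 17). The GA repeat GAGAGA, the kind of repeat that GAGA-type factors bind in flies, was in 204 members (30.4%) and 14.7% of weaker regions, with an odds ratio of 2.54 and an adjusted p of 5.88e-22 (Fisher's exact test). GGGCGG, the core that Sp1-family zinc finger proteins bind, was in 81 members (12.1%) and 5.30%, with an odds ratio of 2.46 and an adjusted p of 4.3e-10 (Fisher's exact test). Both kept their calls in each replicate alone and under the other settings tried. A match describes letters and is not a bound site, and members were richer in G and C than the weaker regions they were compared with.

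6 motifs were less frequent in members. Weaker summits lay more often in coding exons (32.7% against 15.7% of members) and introns (31.5% against 25.8%). Their median G+C content was lower (40.6% against 47.5%). The part that these differences have in the motif shares was not tested. TTTCAG, the acceptor used in splicing and trans-splicing, was in 20.4% of members and 32.6% of weaker regions (adjusted p 1.52e-10, Fisher's exact test), and the T block TTTTTT in 42.1% and 51.7% (adjusted p 6.75e-06, Fisher's exact test). CCAAT was in 30.9% and 37.1%, the TATA box TATAAA in 12.1% and 16.5%, GATAAG in 4.93% and 7.49%, and GTTCNANNC, the B box core of tRNA genes, in 5.07% and 7.51%, with adjusted p of 0.00417, 0.00677, 0.0278 and 0.0375 in Fisher's exact test. TTTCAG kept its call in every setting tried. The T block lost its call at a signal of at least 120 (adjusted p 0.288), TATAAA there and against weaker regions of signal at least 40 (adjusted p 0.051), CCAAT in replicate 1 alone (adjusted p 0.132) and GATAAG and the B box core in replicate 2 alone (adjusted p 0.144 and 0.0551), by Fisher's exact test.

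The other 9 motifs were not called. The E box CANNTG was in 56.6% of members and 56.5% of weaker regions, CACGTG in 5.82% and 4.68%, the cyclic AMP response element (CRE) TGACGTCA in 1.04% and 1.53%, the AP-1 site TGANTCA in 5.37% and 4.97%, and the homeobox core TAATTA in 6.57% and 6.78%. The E2F core GGCGGGAA was in 1.49% and 1.01%, the heat shock element GAANNTTC in 10.1% and 12.7%, the T-box site TCACACCT in 0.149% and 0.605%, and the SKN-1 core GTCAT in 21.3% and 24.99%. In replicate 2 alone CACGTG was called higher (6.70%, adjusted p 0.0206) and GTCAT lower (20.5%, adjusted p 0.0115, Fisher's exact test).

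Grouped by function, the genes beside members came from many lists. At the threshold of 80 the share of all coding genes, 3.11%, is the level to set each list against. No list was tested. The order of the lists holds for the threshold of 80 only. At a signal of at least 120, only 120 of the 19973 coding genes had a member, so 3.11% is not the level there. Wnt and Notch signalling then had 0%, cytosolic ribosomal proteins 4.82% and RNA decay factors 5.71%. Another 9 lists that had members at 80 had none, collagens, muscle, intestine, neurons, neuropeptides, chemoreceptors, nuclear hormone receptors, the vacuolar ATPase and mitochondrial energy metabolism. With so few genes left, these zeros do not set the lists apart. A strong region near an RNA gene or with coding starts on both strands could not enter, so these shares, zeros included, hold only for one-directional promoters away from RNA genes.

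Among lists of translation, 8 of 83 cytosolic ribosomal protein genes had a member (9.64%), at rpl-3, rpl-35, rps-28, rpl-24.2, rps-24, rpl-32, rpl-25.1 and rpl-13, and 7 of these summits lay upstream. The region at rps-28 had a signal of 224.0 (68.17 and 157.9 in replicates 1 and 2) and could as well belong to Y41D4B.4, whose start was also within 1000 bp. 3 of 43 translation factor genes had one, all subunits of the initiation factor eIF3: eif-3.C at 200.5, eif-3.I at 132.7 and eif-3.B at 102.5, each upstream. None of 32 aminoacyl-tRNA synthetase genes, 33 proteasome genes and 24 genes of RNA polymerases I and III had a member. The upper Wilson limits for these lists were 10.7%, 10.4% and 13.8%, all above the 3.11% of all coding genes. With so few genes per list, these zeros do not set the lists apart from that share.

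Among lists of transcription and chromatin, 8 of 82 chromatin regulator genes (9.76%) and 7 of 69 genes of RNA polymerase II and general transcription (10.1%) had a member. The strongest of the former were swsn-3, of the SWI/SNF remodeller, at 194.7, lem-2, a protein of the inner nuclear membrane, at 188.0, and nurf-1, of the NURF remodeller, at 136.0. The strongest of the latter were mdt-26 at 271.1, the polymerase subunit gene rpb-11 at 132.6 and the TFIIB gene ttb-1 at 115.3. In these lists 8 of 9 and 6 of 7 member regions had upstream summits.

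In RNA handling, 5 of 72 splicing genes had a member, the strongest at hrpk-1 (127.6), lsm-6 (88.5) and hrpa-1 (88.0), as had 3 of 35 RNA decay genes, ntl-2, the exosome gene exos-8 (120.8) and ntl-3 (81.4). In protein handling, 5 of 76 chaperone genes had one, the strongest at hsp-3, dnj-9 (139.4) and dnj-5 (105.6), and 5 of 61 ubiquitin genes, the strongest at ubc-3 (142.4), ubq-1 (106.3) and ubc-25 (97.2). Membrane traffic had 10 of 124, led by vps-25 of the ESCRT-II complex (183.9), sec-61.G of the protein translocon (127.7) and sec-12 (99.0), and all 10 summits lay upstream. Mitochondrial energy metabolism had 6 of 88, led by nduf-11 (112.3), nuo-2 (109.5) and cox-5A (108.5) of the respiratory chain, and mitochondrial translation 1 of 70, mrpl-15 (126.1). The vacuolar ATPase had 1 of 21, vha-12 (97.6). Nuclear pore and transport had 2 of 43, npp-8 (145.3) and imb-3 (86.7).

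Genes of signalling and development also appeared. Wnt and Notch signalling had 6 of 54 (11.1%), led by mig-1, a Frizzled receptor, at 117.0, lin-18, the Ryk receptor, at 99.6, and wrm-1, a beta-catenin, at 99.0. Embryonic transcription factors and related regulators had 12 of 163, led by cebp-2 (136.8), cebp-1 (135.7) and hmg-20 (97.4), homeobox genes 3 of 90, ttx-1 (129.3), php-3 (90.8) and ceh-17 (87.3), and nuclear hormone receptors 7 of 269, led by nhr-66 (112.2), nhr-48 (97.3) and nhr-62 (92.4). Kinase signalling had 4 of 69, led by kin-1 (143.5), sem-5 (131.2) and kin-29 (127.8). The homeobox and nuclear hormone receptor shares, 3.33% and 2.60%, were near that of all coding genes. Cell cycle and replication, with 4 of 128, was also near it, and its strongest, cdc-48.1, is on that list through its name, followed by pcn-1, the sliding clamp PCNA, at 137.7 and klp-13, a kinesin, at 116.8.

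Epidermal and cuticle genes differed in where the summit lay. Of 124 genes of spectrin and epidermal structure, 11 had a member (8.87%), with 12 regions, and 11 of these summits lay downstream of the start. The strongest were cut-2 at 203.2, 745 bp downstream in a coding exon, spc-1 at 202.1, 788 bp upstream, and the cuticle collagen gene dpy-17 at 177.6, 807 bp downstream in a coding exon. Of 156 collagens named col, 9 had a member (5.77%), the strongest at col-165 (117.0), col-44 (102.9) and col-130 (98.7), and 2 of the 9 summits lay upstream. Over all members 66.0% of summits lay upstream, and the contrast with these lists was seen in the data and not tested. Collagen genes resemble one another in their coding sequence, and how the authors placed reads that match several genes is not given in the sources used here.

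Among lists of other tissues, muscle had 4 of 47, led by the myogenic factor gene hlh-1 (88.1), unc-112 (86.7) and unc-98 (84.0), and neurons had 5 of 71, led by the calcium channel gene unc-2 (107.8), the kinesin gene unc-116 (92.1) and unc-31 (89.1). The intestine list had 1 of 121, spp-23 (90.3), neuropeptides 2 of 140, nlp-26 (104.4) and nlp-81 (92.7), histones 1 of 74, his-37 (137.5), and tubulin and actin 2 of 21, tba-2 (132.7) and act-4 (89.2). Chemoreceptors had 11 of 1365 (0.806%), led by srh-2 (97.1), sre-46 (93.3) and srt-19 (91.8). In whole embryos a gene's expression in few cells and weak binding in many cannot be told apart.

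**Figure D5:**
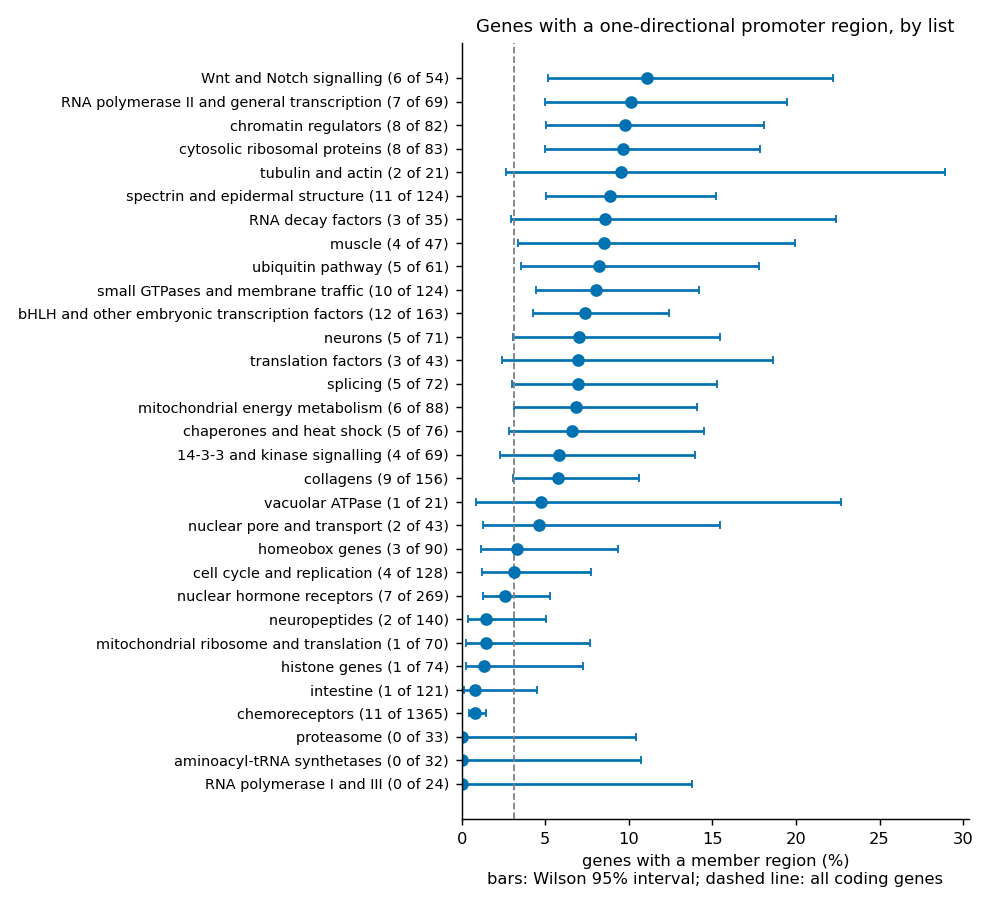
Share of the genes in each of 31 lists that have a member (%), with Wilson 95% intervals over genes; counts are given beside each name and the dashed line is the share of all coding genes, 3.11%. Wnt and Notch signalling, RNA polymerase II and general transcription, chromatin regulators and ribosomal proteins have the highest shares at this threshold, and chemoreceptors lie below the line.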

How the data were processed

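Peak lists were used as deposited, 1 per replicate, 1 on the pooled replicates and the optimal set, in ce11. Per the deposited notes, the 3 larger lists include background as well as peaks. The authors' caller gave each region its signal value. How that value relates to reads, and which aligner and caller were used, is not given in the sources used here. Read depth is unknown. The members and the lists of genes and motifs were chosen with earlier results of these data known.

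Summits were joined to Ensembl release 115 gene models and RefSeq sequence and product names, both on WBcel235, the assembly that ce11 names. Replicate values were taken from the strongest region overlapping a member by at least 1 bp. Position and motif shares were compared by Fisher's exact test, and 6-mers by exact McNemar tests, two-sided, with calls at an adjusted p under 0.05. Leaving out a replicate means applying the rule to the 2263 strongest nuclear regions of the other replicate's list. The analysis used Python 3.11.15, pandas 2.3.3, numpy 2.4.6, scipy 1.17.1 and matplotlib 3.10.9, and the tests were tested on simulated data. Intervals cover counting of regions or genes only.

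Genes were named by a rule: the 20 strongest members, the 3 on each side of the threshold, and up to 3 in each list; genes with several members were named after their values were seen, as were all ribosomal protein genes with a member. Up to 8 6-mers were named. The printed windows beyond the first 10 hold the most often found 6-mer among those more frequent at summits, a restriction added after seeing that AT-rich words were the most frequent called. Coverage tracks were not used here.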

Additional observations from a re-analysis of the deposited data

How the results depend on the processing

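No paired analysis was possible because there was only 1 group. The upstream share kept its call in every setting tried, from 53.6% to 86.5%, as did the comparison of X with divergent regions. The interval midpoint is left out of this, since 668 of 670 summits are midpoints. For the X comparison the limit on weaker regions and the choice of start are also left out, since it uses neither. Leaving out a replicate gave 135 to 197 6-mers higher at summits, 16.2% to 19.2% of members on X, 43.5% to 44.6% with a long upstream gap, and motif shares of 5.04% to 5.06% for the B box core, 5.18% to 5.80% for the GATA site, 29.6% to 34.03% for CCAAT and 20.5% to 23.1% for GTCAT.

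A signal of at least 120 left 126 members at 120 genes, with 30 6-mers higher and 19 lower and 0 with an orientation. There 34.9% of summits lay within 200 bp, 45.2% had a long gap, and the TATA box, T block and B box core were in 15.9%, 45.2% and 4.76%, none called. The optimal set left 143 members. Starts within 500 bp gave 48.6% within 200 bp, 16.4% on X and 38.8% with a long gap, none called. With 7-mers 44 were higher, 77 lower and 0 oriented. A wider window gave 340 higher and 38 oriented, and a flank downstream of the summit, along the gene, gave 116 lower. Upstream summits alone gave 14 oriented, and 1 region per gene, chosen after seeing the data, 1 oriented. The TATA box (12.1%) and the B box core (5.07%) lost their calls against weaker regions of at least 40, and the B box core (2.54%), the GATA site (2.69%) and CCAAT (19.1%) in a narrower window. Replicate support within 100 bp was 87.9% and 94.5%.

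Motifs not called in the report changed direction in some settings. At a signal of at least 120 these were the E box (47.6%), CACGTG (3.97%), the E2F core (0.794%), the CRE (2.38%), the AP-1 site (4.76%) and the homeobox core (7.94%), which also turned with 1 region per gene (6.76%). In replicate 1 alone they were the E box (53.5%), CACGTG (3.50%), the CRE (1.54%) and the AP-1 site (4.34%). In replicate 2 alone the E box (56.1%) changed direction, while CACGTG (6.70%), the CRE (1.19%) and the AP-1 site (5.51%) did not. The cause of these changes was not tested. Depth is unknown, so it limits every signal value to a description.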
